A study of Mus musculus with 16 samples.

Results

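The GFP+ and GFP- cells sorted from the olfactory mucosa of mice that had smelled cigarette smoke were compared on 8 of the 16 arrays of the series, 4 per fraction. Every measured gene entered the comparison (19505 genes). The members were the 4 arrays of GFP+ cells and the 4 arrays of GFP- cells of smoke-exposed mice. By the design each pool of 3 mice gave 1 array of either fraction, so the fractions were compared within a pool. The other 8 arrays held the same 2 fractions of vehicle mice and served to ask where the sort difference depended on the exposure. All animals were S100a5-tauGFP mice of both sexes aged 7 to 12 weeks, each kept alone for 40 h in a chamber supplied with clean air (3.1 L per min). After 26 h of this, smoke mice received pulses of cigarette smoke odour and vehicle mice pulses of filtered air, each lasting 10 s and given every 20 min. The GFP- fraction was a gate on fluorescence, not on a cell type, so it held every dissociated cell that was not GFP+.

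Each olfactory sensory neuron of the main olfactory epithelium transcribes 1 odorant receptor gene out of a large family, or in a small population 1 trace amine-associated receptor, a receptor of volatile amines. Odorant binding raises cyclic AMP through a G protein and adenylyl cyclase, which opens a cyclic nucleotide-gated channel and then a calcium-activated chloride channel. S100a5 is a calcium-binding protein gene of these neurons whose transcription follows recent activity, so the reporter marks neurons that were active in the hours before the sort. The comparison therefore asks which receptors and neuronal genes were found in the active gate during odour exposure.

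Expression was read on Clariom S mouse arrays as log2 values from total RNA of 50 to 100 ng per sample. Array medians ranged over both exposures from 7.87 to 7.96 for the GFP+ and from 8.19 to 8.29 for the GFP- fraction, and arrays of a group correlated across genes at 0.988 to 0.995. The differences below are GFP+ minus GFP- on this log2 scale (1 unit is a 2-fold change, if the scale is exact), given as means of 4 pools with the standard error (SE) of the fitted model, and a gene was called higher or lower at a Benjamini-Hochberg adjusted p of at most 0.05 over all genes. Of the values, 0.946% exceeded 16, more than a 16-bit scanner can record, so the scale of the brightest genes is uncertain. A background level was read from the vomeronasal receptors, which belong to another organ: a group mean at or below their 95th percentile (6.57 in smoke GFP+ and 6.26 in smoke GFP- cells) was taken as a bound, and the difference is then given as "at least". Y-linked genes were low in smoke pool 1 and differed between its fractions. Uty was at 3.52 in its GFP+ and 6.57 in its GFP- cells, against 10.6 to 12.0 in the other 3 smoke pools. By the design both fractions hold the same mice, so the pairing or purity of this pool is uncertain. The cause of this difference was not tested. Without that pool 528 odorant receptors were higher and 215 lower in GFP+ cells, against 527 and 238 with it. Signal from more than 1 cell type enters each array, and fewer cells of a type and less RNA per cell cannot be told apart. The arrays number 4 per group, which limits the precision.

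The reporter's own gene was higher in the GFP+ gate. S100a5 read 17.1, 16.8, 17.1 and 17.0 in the GFP+ cells of smoke pools 1 to 4 and 16.1, 15.5, 15.9 and 16.001 in their GFP- cells. The 2 groups did not overlap, and the difference was 1.15 (SE 0.11, adjusted p = 2.82e-05), nearly that of the vehicle pools at 1.21. The GFP- cells also carried a bright S100a5 signal. With values above 16 set to 16, which applied to 6 of the 8 values, the difference was 0.15 (adjusted p = 0.350). Omp, the olfactory marker protein gene of mature olfactory neurons, differed by 0.12 (SE 0.09, adjusted p = 0.352). All 8 Omp values lay above 16, between 18.1 and 18.3, among the brightest of the array. Centred on array medians, Omp was higher by 0.44 (adjusted p = 0.00258). Ly6c2, a surface antigen of monocytes and other leukocytes, read 6.75, 7.30, 7.78 and 6.59 in GFP+ cells and 14.7, 15.4, 15.8 and 14.7 in GFP- cells. The fall of 8.06 (SE 0.20, adjusted p = 4.78e-09) was alike in the 4 pools, at -7.98, -8.12, -8.02 and -8.12. The exact two-sided sign-flip permutation p of 4 pools cannot go below 0.13, which was its value for all 3 markers.

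**Figure D1:**
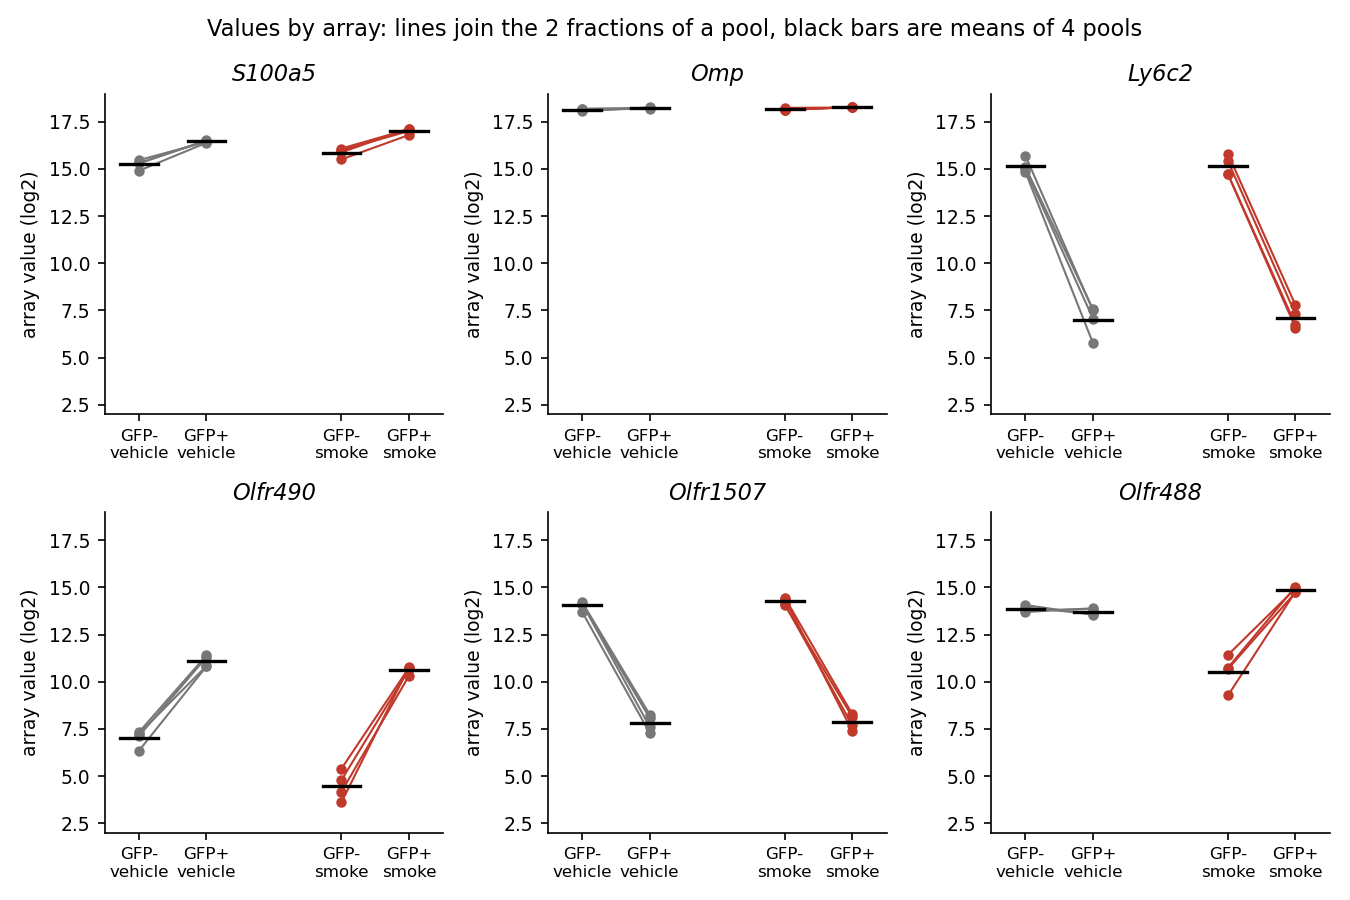
Array values (log2) of 6 genes in GFP- and GFP+ cells of vehicle (grey) and smoke (red) pools, with lines joining the fractions of a pool and black bars at the mean of 4 pools. S100a5 was higher and Ly6c2 lower in every GFP+ fraction, Omp lay near the array maximum throughout, and Olfr488 separated the fractions in smoke pools but not in vehicle pools.

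Odorant receptors held the largest positive differences. Of 1080 measured odorant receptors, 527 (48.8%) were higher in GFP+ cells and 238 (22.04%) were lower, against 18.5% and 14.6% of all 19505 genes (33.1% either way). By at least 1 log2 unit, 448 receptors (41.5%) were higher and 204 (18.9%) lower, where the shares of all genes were 2.79% and 8.9%. The 93 genes that were higher by at least 3 units were all odorant receptors, while of the 512 genes lower by at least 3 units 70 were odorant receptors. The largest positive difference of a gene that was no olfactory receptor was 2.99 (Fxyd2). The receptors ran from -6.38 to 6.13 with a median of 0.63 and an interquartile range of -0.53 to 1.81, beside a median of 0.15 for all genes. The direction of a called receptor was the same in all 4 pools for 745 of 765, and the 2 fractions did not overlap for 684. Over all genes these counts were 6256 and 4940 of 6465 called, so the shared direction was no trait of receptors. Both fractions lay at or below the vomeronasal receptor level for 79 receptors. Centring the arrays on their medians moved the median of all genes by 0.32 and gave 650 receptors higher and 219 lower, with 12435 genes higher and 2125 lower. With each smoke pool left out in turn, 471 to 528 receptors were higher and 215 to 246 lower.

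Among the receptors furthest up were several whose transcripts were close to background in the GFP- cells. Olfr490 read 10.3, 10.8, 10.7 and 10.7 in GFP+ cells and 4.18, 3.62, 4.79 and 5.40 in GFP- cells of pools 1 to 4. The groups lay far apart, with a difference of 6.13 (SE 0.25, adjusted p = 6.87e-08) that amounts to at least 4.36 above background. Olfr160, known as M72, read 10.5 to 11.1 against 4.53 to 6.30 and was higher by 5.60, or at least 4.57. Olfr481 was higher by 5.57 (at least 5.04) and Olfr1054 by 4.98 (at least 4.22). Olfr613 was higher by 4.97 (at least 4.20), Olfr521 by 4.91 (at least 3.23) and Olfr860 by 4.48 (at least 3.91). For 8 others the GFP- mean lay above background, so the difference is measured on both sides. Olfr536 read 14.4, 14.4, 14.4 and 14.0 against 8.93, 8.17, 9.41 and 9.30, a difference of 5.34 (SE 0.21) or 40.6-fold on the deposited scale. Olfr309 read 14.9 to 15.3 against 9.74 to 10.7, a difference of 5.02 (SE 0.16). The others of this kind were Olfr424 (5.30), Olfr506 (5.09), Olfr1099 (4.94), Olfr958 (4.89), Olfr1093 (4.57) and Olfr491 (4.53). In all 15 the fractions did not overlap and the adjusted p was at most 2.61e-06. They were chosen as the largest called differences, which favours both, so neither is further evidence. Of all 765 called receptors 684 had fractions that did not overlap. The next receptor in this order, Olfr494, stood at 4.44.

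The opposite pattern, transcripts abundant in GFP- cells and low in the active gate, was found for a smaller group. Olfr1507, known as MOR28, read 8.29, 7.40, 8.16 and 7.71 in GFP+ cells and 14.5, 14.4, 14.1 and 14.1 in GFP- cells. Its difference of -6.38 (SE 0.17, adjusted p = 7.35e-09) is an 83.5-fold lower value on the deposited scale. Olfr1406 differed by -5.70 (SE 0.20), with GFP+ values of 7.46 to 7.98 and GFP- values of 13.2 to 13.8. Olfr1384 read 7.67 to 8.62 against 13.2 to 14.0, a difference of -5.35 (SE 0.11) and pools from -5.60 to -5.17. Olfr677 varied more, from -7.16 in pool 4 to -4.91 in pool 2, around a mean of -5.69 (SE 0.30). Olfr1442 was the 1 receptor of this group whose GFP+ mean lay at background, and its fall of 5.15 amounts to at least 4.69. The other 10, from Olfr393 (-5.47) to Olfr69 (-4.80), were Olfr459, Olfr390, Olfr1043, Olfr460, Olfr411, Olfr826, Olfr1213 and Olfr1322 besides these 2. The fractions of each of the 15 did not overlap, and the adjusted p was at most 4.75e-05. These too were chosen for the size of a called difference, which favours both.

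**Figure D2:**
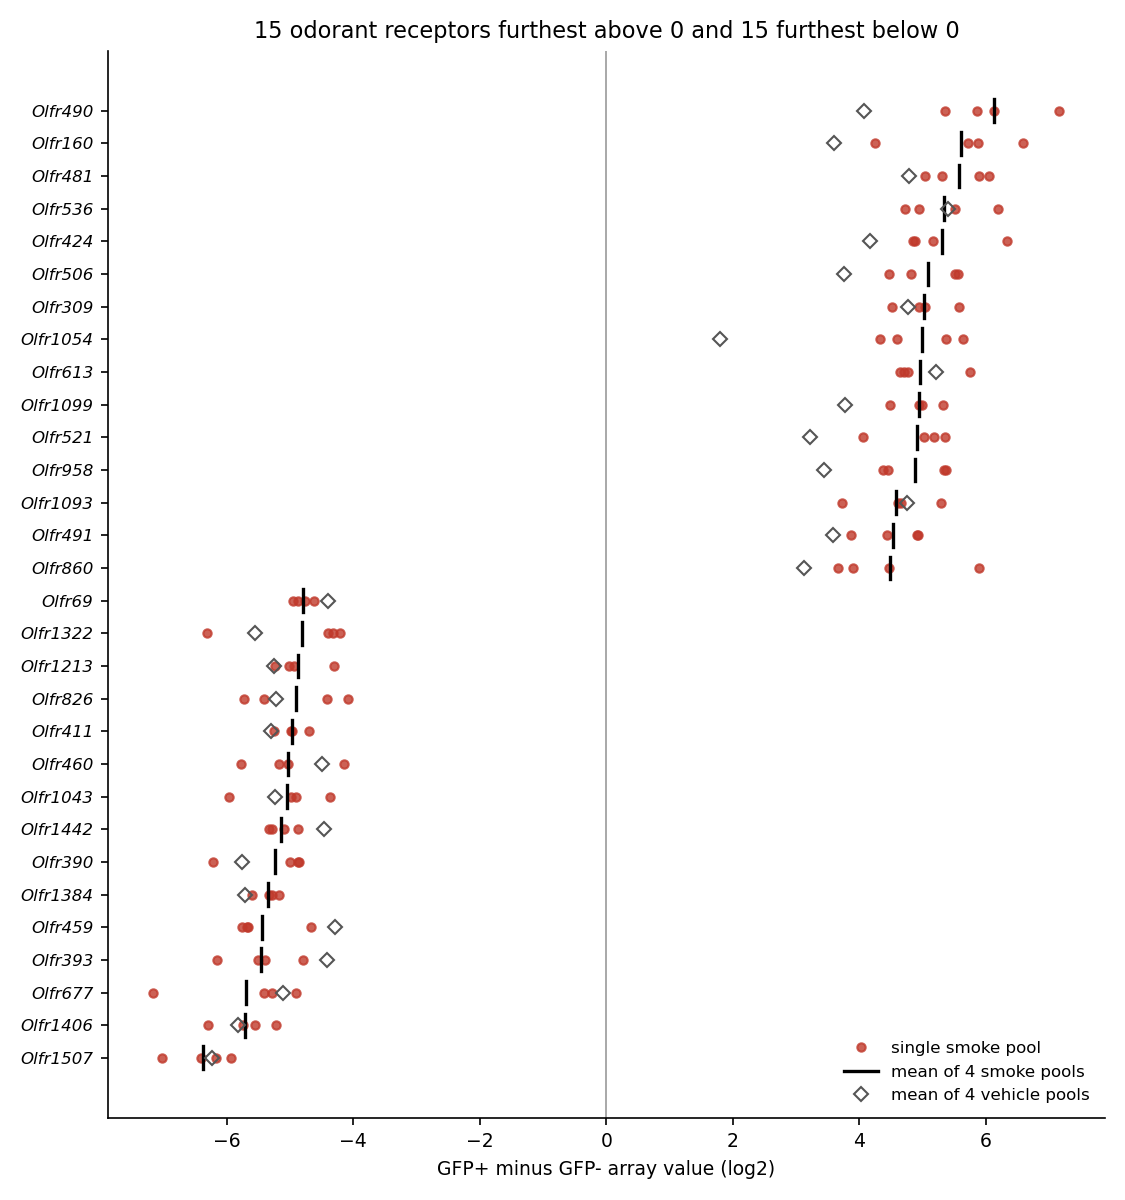
GFP+ minus GFP- differences (log2) of the 15 odorant receptors furthest above and the 15 furthest below 0, with red points for single smoke pools, black bars for their mean and open diamonds for the mean of 4 vehicle pools. That the pools of a receptor lay on the same side of 0 was a condition of the choice. Olfr1054 had the widest gap between smoke (4.98) and vehicle (1.79).

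Receptor families differed in their counts, some leaning one way and others mixed. Mouse odorant receptors also carry family names (MOR numbers) based on protein similarity, and 1047 of the 1080 had 1 such family in the RefSeq gene table. Of the 18 families with at least 12 measured members, MOR106 had 12 of 13 receptors higher and 0 lower (median 2.94) and MOR283 had 10 of 12 higher and 0 lower (median 2.90). MOR204 had 26 of 31 higher and 2 lower, with a median of 2.18. It held Olfr490, Olfr481, Olfr506 and Olfr491 of the 15 receptors above, and its members ran from -2.73 (Olfr487) to 6.13. MOR135 went the other way, with 2 of 17 higher and 11 lower (median -1.24), and so did MOR267 with 3 of 14 higher and 8 lower (median -1.01). The largest family, MOR256, had 22 of 48 higher and 7 lower, with a median of 0.36. Mixed families included MOR171 with 20 of 35 higher and 9 lower, MOR202 with 14 of 30 and 8, MOR231 with 5 of 14 and 6 and MOR233 with 4 of 17 and 6. Over all receptors 48.8% were higher and 22.04% lower. Vehicle pools gave medians of 2.37, 2.35, 1.27, -1.11, -0.13 and 0.79 for MOR106, MOR283, MOR204, MOR135, MOR267 and MOR256. Receptors of a family can share probe signal where their sequences are nearly identical, so members are not independent and the values of close relatives are uncertain. The families were singled out after their values were seen, and no test was made of them.

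Counts also varied between genomic clusters of receptors. Receptors were joined into a cluster where at most 5 other genes lay between neighbours on the mouse annotation. In the largest cluster, on chromosome 2 from Olfr987 to Olfr1274, 129 of 220 receptors were higher and 44 lower, with a median of 1.07. The chromosome 9 cluster from Olfr160 to Olfr986 had 64 of 94 higher and 13 lower (median 1.63). The chromosome 14 cluster from Olfr722 to Olfr749 had 20 of 27 higher and 3 lower (median 2.17), and the chromosome 7 cluster from Olfr467 to Olfr519, which holds MOR204, had 32 of 42 higher and 2 lower (median 1.48). Among the 16 largest clusters, the chromosome 11 cluster from Olfr376 to Olfr412 had the highest share of lower receptors, with 14 of 29 lower and 6 higher (median -0.80, against 0.04 in vehicle pools). Receptors between Stim1 and Cckbr on chromosome 7, the stretch of the class I or fish-like receptors, were higher for 39 of 120 (32.5%) and lower for 29 (24.2%). All other receptors were higher for 488 of 960 (50.8%) and lower for 209 (21.8%). The class I median was 0.24 in smoke pools and 0.69 in vehicle pools, and that of the others was 0.69 and 0.78. With arrays centred on their medians the class I median in smoke pools was 0.57 and that of the others 1.01.

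**Figure D3:**
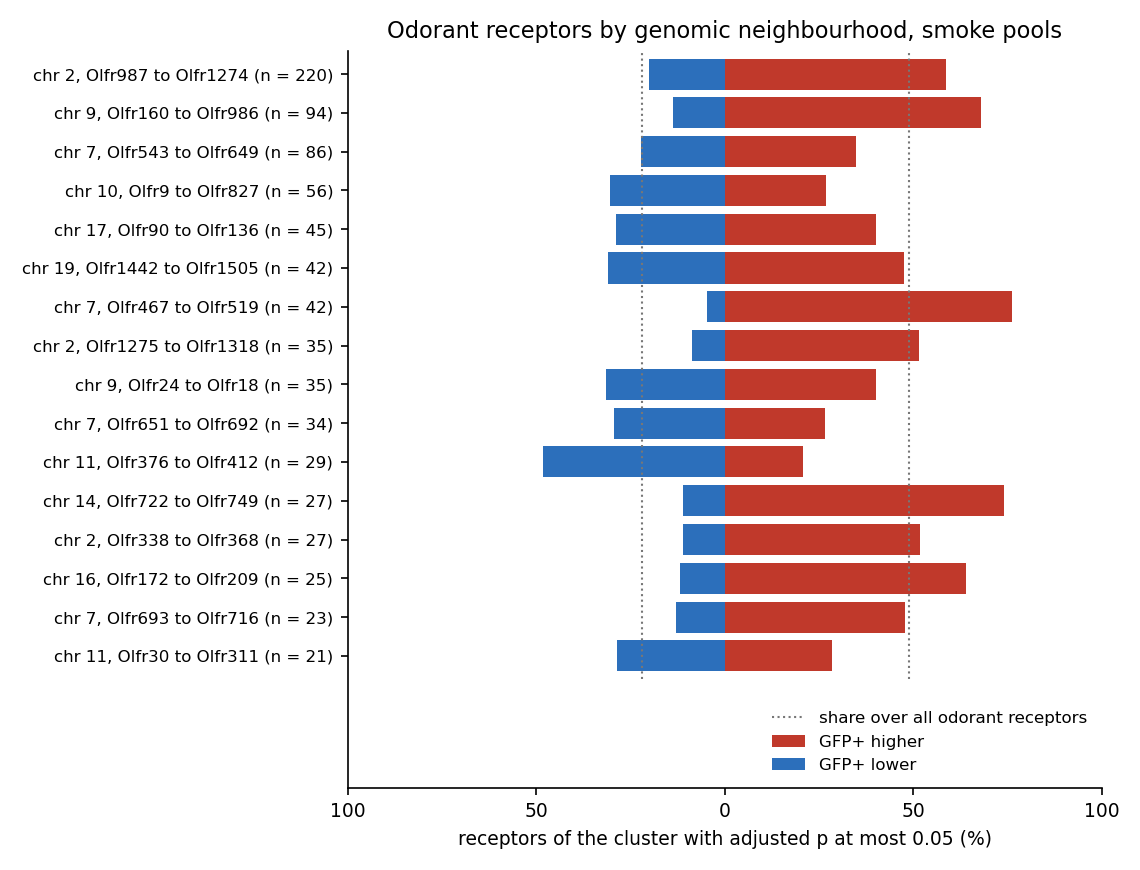
Share of the receptors of each of the 16 largest genomic clusters (chromosome, first and last gene, number of receptors) that were higher (red, to the right) or lower (blue, to the left) in smoke GFP+ cells at an adjusted p of at most 0.05; dotted lines mark 48.8% and 22.04%, the shares over all odorant receptors. The chromosome 7 cluster from Olfr467 to Olfr519 reached 76.2% higher, and the chromosome 11 cluster from Olfr376 to Olfr412 48.3% lower.

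The promoter windows of these genes were examined next. RefSeq promoter windows (GRCm38.p6, 250 bases before the start to 50 after it) were searched for TAATTA, the core bound by homeodomain factors, which reads the same on both strands. The letters stood in 18.57% of the 921 odorant receptor windows found, in 4.29% of the windows of measured genes that are no olfactory receptors and in 6.12% of all 27025 windows. Among receptors higher in GFP+ cells the share was 20.4%, among lower receptors 21.4% and among those not called 13.3%. The shares of higher and lower receptors thus lay close together. Printed here, with TAATTA in capitals, are the windows of the reporter gene S100a5 (chr3:90608272-90608571, plus strand), of the higher receptors Olfr481 (chr7:108080546-108080845, plus strand) and Olfr1099 (chr2:86959407-86959706, minus strand) and of the lower receptor Olfr393 (chr11:73848074-73848373, minus strand). The letters occurred 1, 3 and 1 times in these receptors of either direction and 0 times in the S100a5 window. Most receptor windows held no TAATTA, as the shares above show, so the printed receptors are not typical. In each printed receptor window the 50 bases after the start open with ATG, so the annotated start there is that of the coding sequence. Such a window need not hold the promoter, and the shares of receptors and other genes can compare unlike regions. A match is a description of the sequence and not a site of binding.
S100a5: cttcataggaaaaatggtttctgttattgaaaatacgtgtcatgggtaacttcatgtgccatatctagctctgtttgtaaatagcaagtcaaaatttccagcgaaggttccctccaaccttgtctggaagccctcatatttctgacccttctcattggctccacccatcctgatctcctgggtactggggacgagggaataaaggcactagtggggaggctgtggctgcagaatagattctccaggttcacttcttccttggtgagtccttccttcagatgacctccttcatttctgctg
Olfr481: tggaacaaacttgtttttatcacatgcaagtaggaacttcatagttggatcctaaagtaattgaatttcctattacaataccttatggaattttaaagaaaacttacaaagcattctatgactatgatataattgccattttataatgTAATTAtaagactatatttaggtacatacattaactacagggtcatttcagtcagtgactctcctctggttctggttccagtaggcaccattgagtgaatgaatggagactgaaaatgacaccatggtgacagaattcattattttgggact
Olfr1099: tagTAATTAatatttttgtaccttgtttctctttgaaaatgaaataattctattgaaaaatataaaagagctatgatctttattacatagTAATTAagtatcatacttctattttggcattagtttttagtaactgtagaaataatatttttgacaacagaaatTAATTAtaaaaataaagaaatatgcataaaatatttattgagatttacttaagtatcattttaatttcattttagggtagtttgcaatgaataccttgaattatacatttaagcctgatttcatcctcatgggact
Olfr393: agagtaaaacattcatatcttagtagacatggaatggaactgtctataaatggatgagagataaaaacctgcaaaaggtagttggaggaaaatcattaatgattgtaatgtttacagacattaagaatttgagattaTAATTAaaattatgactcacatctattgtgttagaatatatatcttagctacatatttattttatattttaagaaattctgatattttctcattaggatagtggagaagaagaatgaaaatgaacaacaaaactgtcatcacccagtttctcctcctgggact

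The trace amine-associated receptors leaned the same way as the odorant receptors. Of 15 measured, 9 were higher and 1 was lower, with a median of 1.02, and 8 were higher by at least 1 unit. Centred on array medians 12 were higher and 1 lower. Over all genes, on the values as deposited, 18.5% were higher, 14.6% lower and 2.79% higher by at least 1 unit. Taar4 read 9.35, 9.76, 9.77 and 10.5 in GFP+ cells against 7.63, 7.08, 7.11 and 7.40 in GFP- cells, a difference of 2.54 (SE 0.21, adjusted p = 8.80e-06). Taar9 followed at 2.19, Taar7b at 2.04, Taar7e at 1.98, Taar7f at 1.52 and Taar7d at 1.47, none of them with overlapping fractions. Taar8a (1.12) and Taar8c (0.59) were called with adjusted p of 0.0218 and 0.0339. The call of Taar8a was lost without pool 1, 2 or 4 (up to adjusted p = 0.085) and that of Taar8c without pool 1, 2 or 3 (up to 0.12). Taar5, at 1.02, was below the vomeronasal receptor level in both fractions, so no fold can be given. Taar7a was the 1 lower member, at -1.32 (SE 0.23, adjusted p = 0.00182). Taar2 (0.78), Taar3 (0.56), Taar1 (0.47), Taar8b (-0.34) and Taar6 (-0.68) did not pass. The Taar7 genes are close relatives and can share probe signal. Vomeronasal receptors, the background genes, had 41 of 319 higher (12.9%, below the share of all genes) and 0 lower (median 0.23, none by 1 unit or more). No vomeronasal receptor was lower at an unadjusted p below 0.05 by limma (0 of 319). Without pools 1 to 4 in turn, 32, 24, 21 and 30 of them were higher, and 199 were higher on centred arrays.

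Most receptor differences in smoke pools were also present in vehicle pools, where 25.0% of all genes were higher and 15.6% lower (40.6% either way). Of the 527 receptors higher in smoke, 474 were higher in vehicle too, which is 89.9% of the smoke list and 80.7% of the 587 vehicle receptors. Of the 238 lower ones 183 were lower in both, 76.9% of the smoke list and 85.1% of the vehicle list. Over all genes 69.9% of the smoke higher list and 89.6% of the smoke lower list were shared with vehicle. The smoke and vehicle arrays come from different pools. The contrast of both sort differences, smoke minus vehicle, was called for 35 of 19505 genes (0.179%), of which 34 were larger in smoke (0.174%) and 1 was smaller (0.00513%). The 34 were 31 odorant receptors and 3 trace amine-associated receptors, and the 1 smaller was Olfr518. None of the 18091 genes outside the receptor families was called in this contrast by limma, with 1141 of them at an unadjusted p below 0.05. Of the 34, 15 were lower in the GFP+ cells of vehicle pools, and 11 of these 15 were higher in those of smoke pools. Of the others, 10 were higher in smoke without a call in vehicle and 9 were higher in both.

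Olfr488 had the largest contrast, 4.49 (SE 0.37, adjusted p = 0.00298). In vehicle pools its values were 13.6, 13.9, 13.6 and 13.9 in GFP+ cells and 14.1, 13.8, 13.9 and 13.7 in GFP- cells, which overlapped. In smoke pools they were 14.7, 14.8, 15.04 and 14.9 against 10.7, 9.28, 10.7 and 11.4. As mean levels, GFP- cells stood at 13.9 in vehicle and 10.5 in smoke pools and GFP+ cells at 13.7 and 14.9, a change of level that was not tested on its own. Olfr1278 had a contrast of 4.42 (SE 0.48, adjusted p = 0.00651) and its levels differed mostly in the GFP+ fraction. Its vehicle values were 6.08, 7.01, 6.94 and 8.19 in the GFP+ fraction and 10.5 to 10.8 in the GFP- fraction, and its smoke values were 10.8, 11.5, 11.2 and 10.7 against 10.6, 9.94, 9.85 and 10.2. The smoke difference alone, 0.89, did not pass (adjusted p = 0.0683). Olfr736 reversed, from -1.85 in vehicle pools to 1.93 in smoke pools, with a contrast of 3.78 (SE 0.31, adjusted p = 0.00298). It read 12.6, 12.4, 12.3 and 12.2 in smoke GFP+ cells and 10.9, 10.8, 9.65 and 10.4 in smoke GFP- cells. Olfr484 reversed from -1.15 to 2.44 and Olfr750 from -3.15 to 1.03. The smoke call of Olfr750 was lost without pool 2 or 3 (adjusted p up to 0.097).

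Olfr1137 (contrast 4.19), Olfr153 (3.03) and Taar2 (3.58) were also among the largest 10. Taar2 went from -2.79 in vehicle to 0.78 in smoke pools, where it read 9.83, 10.2, 11.1 and 10.7 in GFP+ cells and 9.84, 9.70, 9.13 and 10.0 in GFP- cells, so the smoke fractions overlapped. Olfr878 was lower in vehicle pools (-4.05), and its smoke difference of -0.88 did not pass (adjusted p = 0.0589), with overlapping fractions and a contrast of 3.17. Olfr1054 was higher in both, at 1.79 and 4.98 (contrast 3.19). Taar7d and Taar7f had contrasts of 2.30 and 2.18, from -0.84 and -0.66 in vehicle pools. Olfr518 was higher in both exposures, by 2.69 in vehicle and 1.06 in smoke pools (contrast -1.63). Of the 35 calls, 17 held with each of the 8 pools left out in turn, Olfr488, Olfr1278, Olfr736, Olfr750, Olfr484, Olfr1054, Taar7d and Taar7f among them. Olfr1137 lost its call without smoke pool 2, 3 or 4 or vehicle pool 1, 3 or 4 (adjusted p up to 0.134). Taar2 lost it without smoke pool 2 or 4 or vehicle pool 1, 2 or 4 (up to 0.0723), and Olfr153 without pool 2 or 4 of either exposure (up to 0.0763). Olfr878 lost it without any pool but smoke pool 4 (up to 0.096), and Olfr518 without any of the 8 (up to 0.168). Leaving out smoke pool 2, smoke pool 4 or vehicle pool 2 gave 17, 21 and 21 larger contrasts. Among the GFP+ arrays, markers of sustentacular cells, the supporting cells of the epithelium, were highest in smoke pools 2 and 4. Their mean levels there were 10.4 and 10.7, against 9.81 and 9.97 in smoke pools 1 and 3. The GFP- arrays of smoke pools stood at 10.8 to 11.4. Without these 2 pools, 3 larger contrasts (Olfr488, Olfr750 and Olfr894) were called, from fewer arrays. The contrasts themselves stayed about as large: Olfr736 was at 4.02, Olfr484 at 3.83, Olfr1278 at 4.28 and Olfr1054 at 3.19, while Olfr153 was at 2.39.

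**Figure D4:**
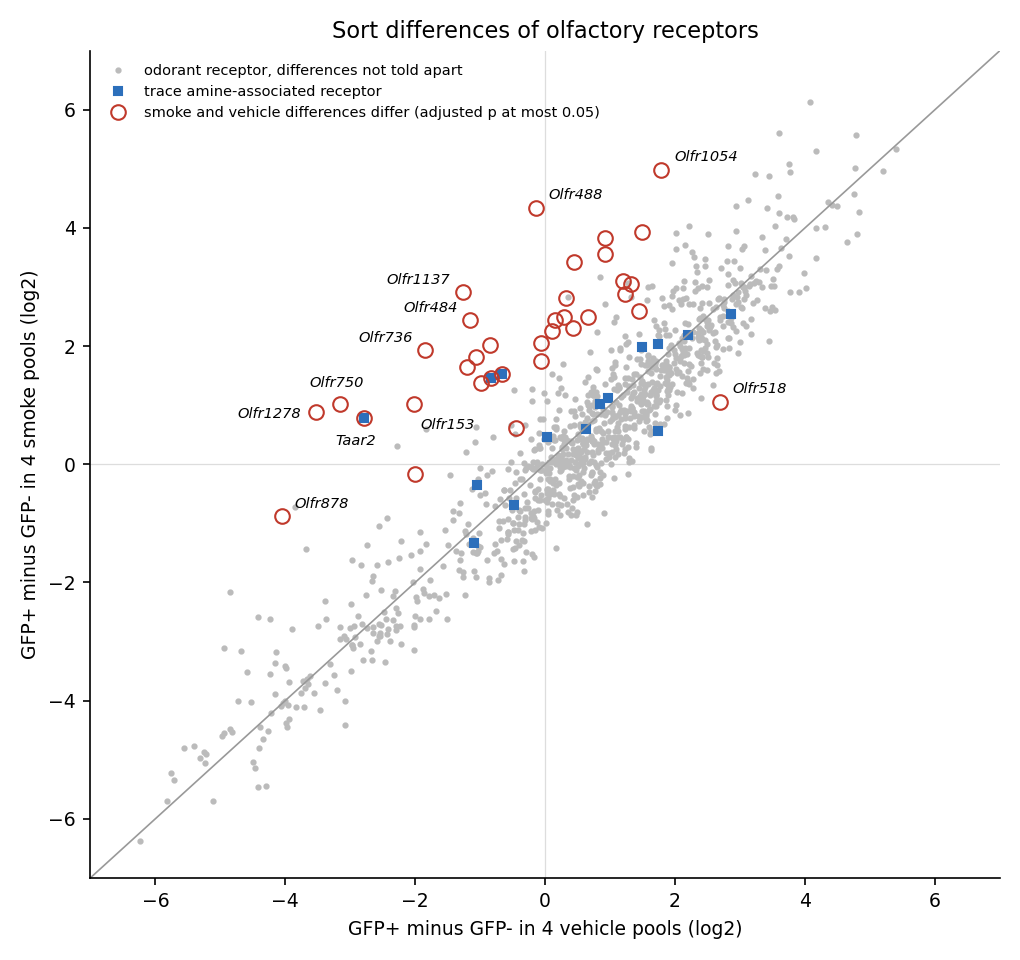
GFP+ minus GFP- difference (log2) in 4 smoke pools against that in 4 vehicle pools for 1080 odorant receptors (grey points) and 15 trace amine-associated receptors (blue squares), with equality as a line and red circles on the 35 genes whose contrast was called. Most points lay near the line, and 34 of the 35 circles lay above it.

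Beyond receptors, most listed genes that follow neuronal activity were higher in the active gate. Of 7 genes known to change with activity in olfactory neurons, 6 were higher and 0 lower, with a median of 1.25 against 0.15 over all genes. Of all genes 18.5% were higher. Pcp4l1, a small relative of the calmodulin-binding protein PEP-19, read 15.6, 15.1, 15.4 and 14.8 against 13.4, 13.0, 13.3 and 13.5, a difference of 1.93 (SE 0.16, adjusted p = 8.91e-06). Its pool 4 was the smallest, at 1.29. Kcnmb3, a subunit of calcium-activated potassium channels, was higher by 1.51 and Lrrc3b, a leucine-rich repeat membrane protein, by 1.46. S100a5, whose reporter set the gate, was higher by 1.15. The axon adhesion gene Kirrel2, whose level follows activity, was higher by 1.25, with 0.73 in pool 4 against 1.40 to 1.44 in the others. Sema7a, a membrane-anchored semaphorin, was higher by 0.85. Rasgrp4 stood at -0.04 (adjusted p = 0.92). This list and those below were drawn up with results of these data known, so their direction is no independent evidence.

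Of the 18091 genes that are no olfactory or vomeronasal receptors, 89 were higher by at least 1 unit and 1530 lower. Fxyd2, a regulatory subunit of the sodium pump, read 11.2, 11.1, 10.8 and 10.8 in GFP+ cells and 8.12, 7.75, 8.20 and 7.86 in GFP- cells, a difference of 2.99 (SE 0.19, adjusted p = 1.10e-06). After Pcp4l1 came Caly (1.88), a neuronal vesicle protein, and Nell2 (1.87), a secreted neuronal glycoprotein. Akap3, an anchor of protein kinase A, was higher by 1.58 (at least 1.02) and Ptprn, a protein of dense-core vesicles, by 1.54. Rfx4, a transcription factor of the RFX family, was higher by 1.46, the retinoic acid receptor gene Rarb by 1.45, the protocadherin Pcdh7 by 1.45 and the cannabinoid receptor Cnr1 by 1.43. Rarb fell on the same side in every pool (1.07 to 1.76), yet its fractions overlapped because the pools differed in level, from 10.2 to 11.8 in GFP+ cells. Without smoke pool 2 or 3, 2163 and 1980 genes of all kinds were higher, against 3617 with all 4 pools. Without pools 2 and 4 together it was 1336.

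A minority of the genes of odour transduction, receptor trafficking and mature neurons were called. Of 15 transduction genes 5 were higher, 1 was lower and 9 were not called (median 0.23), where 18.5% of all genes were higher and 14.6% lower. The calmodulin-dependent phosphodiesterase Pde1c was higher by 0.79 (SE 0.09, adjusted p = 1.16e-04), and the sodium-calcium exchanger Slc24a4, which ends the response, by 0.59. The calcium-activated chloride channel Ano2 was higher by 0.51, with all 8 values above 16, and Pde4a by 0.40. Without pool 1 or 3, 3 transduction genes were higher, and Pde4a was not among them (adjusted p up to 0.059). Rgs2, a regulator of G protein signalling that leukocytes also express, was lower by 6.16 or at least 5.14. Of 13 genes of receptor trafficking and choice 2 were higher and 0 lower (median 0.08), a share below that of all genes. They were Reep1 (0.42), lost without pool 3, and Rtp2 (0.42), lost without pool 2 or 3, with adjusted p up to 0.061 and 0.13. Of 15 mature neuron genes 5 were higher and 0 lower (median 0.22). Among them were the glutamate transporter Slc17a6 (0.47) and the adenylyl cyclase Adcy3 (0.31). Most members of this list are also in the transduction or the trafficking list, so the counts of these lists are not independent. Of the called members, Ano2 and Adcy3 count among the transduction genes too and Rtp2 among the trafficking genes. Without pools 1, 2 and 3 in turn 3, 2 and 2 mature genes were higher, and Adcy3 lost its call in each case (adjusted p up to 0.15). These medians lay within 0.1 of the median of all genes. Centred on array medians, 14 of 15 transduction, 13 of 13 trafficking and 15 of 15 mature genes were higher, so these counts depend on the scaling.

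Genes of axons and synapses had larger medians. Against 18.5% of all genes higher and 14.6% lower, 11 of 21 genes of axon guidance and sorting were higher and 1 was lower (median 0.36). Besides Kirrel2 and Sema7a these included the ephrin receptor Epha5 (1.01) and the semaphorin receptor subunit Plxna3 (0.83). Sema3a, a repellent guidance cue, was the lower member at -0.71, and its call was lost without pool 1, 3 or 4 (adjusted p up to 0.064). Of 15 synaptic genes 9 were higher and 0 lower (median 0.38). The vesicle proteins Sv2b (0.78) and Syn2 (0.77) and the scaffold Dlg2 (0.59) led. Slc17a6, counted among the mature neuron genes, is 1 of these 9. Without pool 2 or 3 the synaptic count was 6 and 5. On centred arrays 15 axon, 13 synaptic and 11 calcium-binding genes were higher, with 0, 0 and 1 lower. Of 14 calcium-binding genes 5 were higher and 2 lower (median 0.31). The higher ones include S100a5, whose reporter set the gate, and Pcp4l1, both already counted among the activity-following genes. Hpcal4 stood at 0.89 and Cabp1 at 0.54. Calb2, which encodes calretinin, was the exception in size at -3.24 (SE 0.11), with GFP+ values of 12.8 to 13.2 and GFP- values of 16.1 to 16.3. Hpcal1, at -0.33, lost its call without pool 1, 3 or 4 (adjusted p up to 0.14) and without the replicate block (0.0905). Of 5 genes of the ventral zone of the epithelium, Nrp2 (0.47) and Ncam2 (0.44) were higher and Nfia (-0.52) lower. Without pool 2, 3 or 4 Ncam2 was not called (adjusted p up to 0.12). Nrp2 and Ncam2 are also in the axon list. Nfia was not called without the replicate block (adjusted p = 0.122) or with the pool as a random block (0.081). None of the 3 dorsal zone genes was called by limma. Of these, 0 had an unadjusted p below 0.05.

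Immature neuron genes pointed the other way in part. Of 19 genes 9 were lower and 1 was higher (median -0.31), against 14.6% lower and 18.5% higher over all genes (median 0.15). The chemokine receptor gene Cxcr4 (-5.01), the transcription factor Nhlh1 (-4.01), the G protein subunit Gng8 (-3.97) and the growth cone protein Dpysl3 (-3.02) were the largest. Gng8 read 7.13, 6.88, 6.98 and 7.48 in GFP+ cells and 11.0, 10.6, 11.6 and 11.1 in GFP- cells. Trib3 was the higher gene, at 0.52, and lost its call without pool 3 (adjusted p = 0.087). With arrays centred on their medians 8 were higher and 8 lower, and the list median was 0.02. The immediate early genes, which neurons and many other cells switch on within minutes of stimulation, were also mostly lower, with 14 of 24 lower, 1 higher and a median of -0.71 (4 higher and 13 lower on centred arrays). Nr4a1 (-4.77), Junb (-4.60), Fosb (-3.90) and Egr1 (-3.82) had the smallest p. Egr1 read 10.7 to 11.0 in the GFP+ and 14.5 to 14.8 in the GFP- fraction. Nptx2, a secreted neuronal pentraxin, was the higher member at 0.61 and lost its call without pool 2 or 3 (adjusted p up to 0.10).

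Markers of other cells were concentrated in the GFP- gate. All 14 neutrophil genes were lower in GFP+ cells (median -7.36), against 14.6% of all genes. Their mean level was 7.10 to 7.81 in GFP+ arrays and 13.8 to 15.3 in GFP- arrays, and 4 of the 14 lay at background in GFP+ cells. S100a8 and S100a9, the subunits of calprotectin, were lower by 7.55 and 7.51, the lipocalin Lcn2 by 7.44, the resistin-like Retnlg by 7.87 and the cathelicidin Camp by 7.83 or at least 6.81. The other genes furthest down were Ly6c1 (at least 7.80), the haptoglobin Hp (at least 7.15), the collagenase Mmp8 (-7.69, of the same list), the leukocyte tetraspanin Cd37 (at least 7.18), Mrgpra2b (at least 6.48) and the protease Ctse (at least 7.29). Of 15 macrophage and monocyte genes 10 were lower and 0 higher (median -4.58), with H2-Aa, Ccr2 and H2-Ab1 next to Ly6c2 by p. The complement genes C1qa, C1qb and C1qc, defining markers of tissue macrophages, were not called, at 0.03, -0.36 and -0.19. Of 11 B cell genes 10 were lower (median -3.67) and of 8 T and NK cell genes all 8 (median -2.43), and Cd79a, Cd79b, Ms4a1, Cd3e and Nkg7 lay at background in GFP+ cells. The red blood cell genes Slc4a1 (-3.54) and Alas2 (-2.80) were lower too. The part of leukocytes in the lower genes was not tested.

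Cells of the epithelium other than neurons divided into those well separated by the gate and those less so. Of 12 genes of microvillar cells and ionocytes 11 were lower and 0 higher (median -2.52), with Hepacam2 at -4.31, Cftr at -3.25, Trpm5 at -2.997 and Coch at -2.77. Of 11 genes of globose basal and cycling cells 10 were lower (median -2.32), with the proliferation gene Mki67 at -5.77, or at least 5.57 lower, and the stem cell factor receptor Kit at -3.41, or at least 2.85 lower. Sustentacular genes were less far apart, with 9 of 12 lower and 1 higher and a median of -0.50. The keratins Krt18 (-2.38) and Krt8 (-2.29) and Notch2 (at least 1.61 lower) led, while Sec14l3, at 0.80, was higher. Without pool 1 or 3, 6 and 5 sustentacular genes were lower, and 6 were lower without the replicate block, with a random block and with the smoke arrays alone. On centred arrays 5 were lower and 2 higher. The mean level of the list stood at 9.81 to 10.7 in GFP+ arrays and 10.8 to 11.4 in GFP- arrays. The vehicle median of the list was -1.02. No member was called in the contrast of smoke and vehicle, where 0.179% of all genes were. For the remaining lists the share of lower genes was near that of all genes (14.6%) or rested on few members. Of 12 gland and respiratory genes 2 were lower, Sox9 (-3.48) and Scgb1c1 (-1.02). Of 9 stromal genes 2 were lower, Rgs5 (-3.01) and Acta2 (at least 0.49). Horizontal basal, ensheathing and endothelial genes had 1 of 9, 2 of 8 and 1 of 6 lower, and 8, 5 and 4 of them lay at background in both fractions. The higher genes of these lists, Krt15 and Foxd3, were at background in both fractions. Pecam1, the lower endothelial gene, was at least 0.64 lower and Sox10 at least 0.36.

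**Figure D5:**
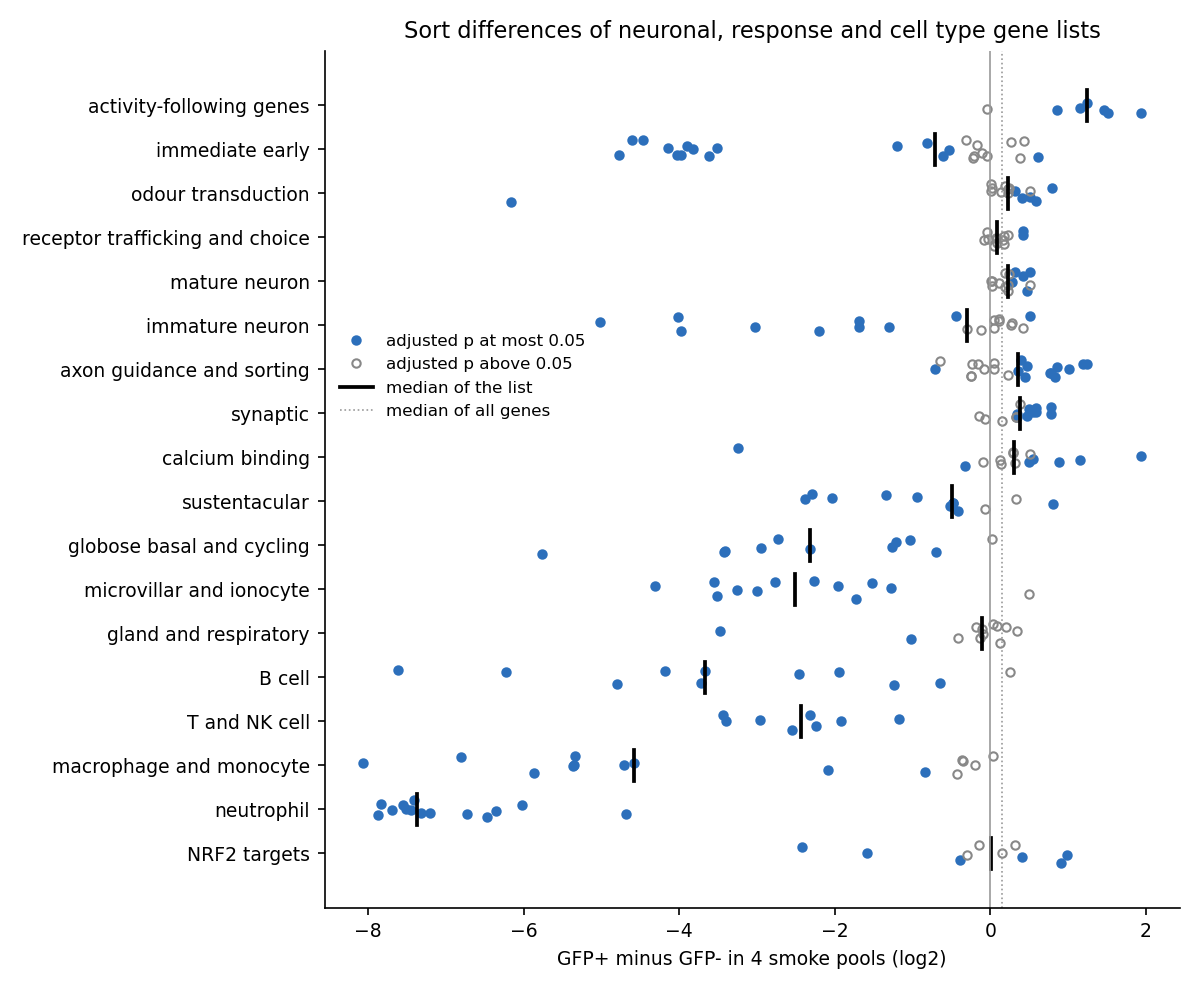
GFP+ minus GFP- difference (log2) in 4 smoke pools for the genes of 18 lists, filled where the adjusted p was at most 0.05, with a black bar at each list's median and a dotted line at the median of all genes (0.15). The activity-following genes lay furthest to the right (median 1.25) and the neutrophil genes furthest to the left (median -7.36).

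Genes that answer oxidants and electrophiles, components of smoke, were split between the fractions. Of 10 targets of the factor NRF2, 3 were higher and 3 lower, with a median of 0.002 (5 higher and 2 lower on centred arrays, median 0.32). Over all genes 18.5% were higher and 14.6% lower. Srxn1, which reactivates peroxiredoxins, was higher by 0.98, Pir by 0.91 and Txnrd1, a thioredoxin reductase, by 0.41. The cystine transporter Slc7a11 was lower by 2.43, with pools from -3.51 to -1.21, the glutathione reductase Gsr by 1.58 and Gclc by 0.39. Txnrd1 lost its call without pool 2 or 3 and Gclc without pool 3 or 4 (adjusted p up to 0.06 and 0.11). Of 11 genes of protein folding and integrated stress, Trib3 and Dnajb9 (0.30) were higher and Xbp1 lower (-0.54). Dnajb9 lost its call without any 1 of the 4 smoke pools (adjusted p up to 0.14) and without the replicate block (0.122). Among 6 genes listed for minor sensory populations that use guanylyl cyclases, Gucy1b2 was higher by 1.24 (at least 0.90). Pde2a (-3.61) and Car2 (-1.09) were lower, and other cells express these 2 as well. The list is not read as a single population. None of the 285 genes of the 27 lists was called by limma in the contrast of smoke and vehicle sort differences. Over all genes 0.179% were called, so lists of this size need not hold a called gene. Of the 285, 44 had an unadjusted p below 0.05 by limma, against 1516 of all 19505 genes.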

How the data were processed

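The text describes 8 arrays of smoke-exposed mice, with the 8 vehicle arrays in the same fit. The values used were the deposited log2 values, made by the authors with Affymetrix Expression Console, per the submitters' processing notes; the sources used here give neither its version nor its algorithm nor an array build. The sorted values of any 2 arrays differed by at most 0.346, and no further normalization was applied. The series text also names bourgeonal; the labels name cigarette smoke and were followed. Of 28846 probe sets, 19572 had 1 gene symbol (2634 none, 6640 controls), and the probe set with the highest mean represented each of 19505 genes.

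The 16 arrays were fitted with limma 3.58.1 (lmFit and eBayes in R 4.3.3) with the pool as a fixed block of 8 levels, a smoke and a vehicle sort effect and their contrast. P-values were two-sided, with Benjamini-Hochberg adjustment over all genes at 0.05. The block comes from the design, since 24 mice in pools of 3 gave 8 pools and 16 arrays; residuals of the fractions of a pool correlated with r of 0.22, 0.091, 0.093 and 0.13 in smoke and 0.21, 0.082, 0.045 and 0.20 in vehicle pools. Replicates are pools. The p-values rest on the spread between pools of the GFP+ minus GFP- difference, estimated over both exposures and moderated by eBayes, and not on differences in level between pools. The fit was tested on simulated data: in the smoke difference a shift of 1 was recovered for 84% of 50 genes and one of 0.5 for 10%, and in the contrast for 54% and 0%. The shifted genes were a far smaller share than the 33.1% called in smoke. The recovery rates of the smoke difference therefore need not hold for the data.

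The members, the 27 lists and the rules were chosen with earlier results of these data known. Named are S100a5, Omp and Ly6c2; all trace amine-associated receptors; and, among genes called, of the same sign in 4 smoke pools and above the vomeronasal receptor level (mean over arrays of the 95th percentile) in a fraction, the 15 odorant receptors and 12 other genes furthest each way, up to 4 genes of a list each way by p (else 2), and the 10 largest contrasts each way. Other genes are named as members of a counted group. A bound is the mean of the brighter fraction minus that of the dimmer with values raised to the level. RefSeq (GRCm38.p6) gave gene order, family names and promoter windows. There were 16 alternatives. Figures used Python 3.11.15 with matplotlib 3.10.9.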

Additional observations from a re-analysis of the deposited data

Results flagged for a closer look

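Among the 4 within-pool differences of the 160 named genes, a gap test (Dixon, 95% level) set apart 10 values, where chance gives about 1 in 20. None of the 27 list means was set apart. The odorant receptors Olfr613 (pool 2, 5.75), Olfr459 (pool 2, -4.66), Olfr390 (pool 1, -6.21) and Olfr1322 (pool 1, -6.31) had such a pool. Pool 4 stood low for the activity-following genes Pcp4l1 (1.29) and Kirrel2 (0.73) and for Taar8b (-1.48). Pool 3 stood apart for Taar8a (0.41) and Cxcr4 (-5.82), and pool 1 for Cabp1 (0.83).

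The sort difference differed between smoke and vehicle pools, by the limma contrast, for 13 named receptors. The contrasts were 4.49 for Olfr488, 4.42 for Olfr1278, 4.19 for Olfr1137, 4.18 for Olfr750, 3.78 for Olfr736, 3.59 for Olfr484, 3.58 for Taar2 and 3.19 for Olfr1054. They were 3.17 for Olfr878, 3.03 for Olfr153, 2.30 for Taar7d, 2.18 for Taar7f and -1.63 for Olfr518.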

How the results depend on the processing

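Leaving out any of the 8 pools gave 1980 to 3494 genes higher, 17 to 34 contrasts larger in smoke and 0 to 2 smaller. Leaving out smoke pools 2 and 4, an alternative chosen after seeing the data, gave 1336 genes higher, 2008 lower, 431 and 186 odorant receptors and 3 larger and 0 smaller contrasts, from fewer arrays. Centring the arrays gave 12435 genes higher, 0 smaller contrasts and an Omp difference of 0.44 (adjusted p = 0.00258). Quantile normalization gave 4916 genes higher, 2683 lower and 2 smaller contrasts. Values above 16 set to 16 gave 21 larger and 0 smaller contrasts and 0.15 for S100a5; no value could be had for Omp, Ano2 and Adcy3, whose 8 values all lay above 16. Without the replicate block, unpaired, 3574 genes were higher, 2799 lower, 531 and 238 receptors, and 33 and 1 contrasts. Of the list counts, those over 1.5 times apart without the block were axon genes lower (1 to 2), ventral zone genes lower (1 to 0), calcium-binding genes lower (2 to 1) and stress genes higher (2 to 1). With the smoke arrays alone 2564 genes and 2 mature neuron genes were higher. Odorant receptor counts stayed at 471 to 650 higher and 215 to 250 lower outside the run without pools 2 and 4. Of 1880 checks of 157 named smoke differences, 1774 stayed on the same side of the threshold and 3 changed sign: Taar8b to 0.038 (range -0.50 to 0.038 with a replicate left out) without smoke replicate 4 and to 0.12 without pools 2 and 4, and Robo2 to 0.072 on centred arrays, none of them called. Of 195 checks of the 13 named contrasts 146 stayed, 49 lost the call and none changed sign, and 2 contrasts kept theirs throughout. The cause was not tested. Bright probe sets and those near background limit what can be seen.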
